A study of Mus musculus with 30 samples.

Results

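The retinoid X receptor gene *Rxrg* and 9 related nuclear receptor genes, 10 of the 47643 genes measured, were followed in microglia of mice with and without a Cre-driven deletion of *Bin1*. *Rxrg* was selected because its level in these same libraries was higher in every Cre-positive group than in WT mice. The other genes were taken for their relation to it: its paralogs *Rxra* and *Rxrb*, and the dimer partners *Nr1h2*, *Nr1h3*, *Ppard*, *Pparg*, *Rara*, *Rarg* and *Vdr*. The comparisons of *Rxrg* among genotypes and by sex are therefore descriptions and carry no test. The other genes, and *Rxrg* by mouse number, were tested with limma. A gene is said to be called, to rise or to fall where its p-value adjusted over all genes was below 0.05 and its fold change above 1.5. Of the 10 genes, 7 reached a mean of 0.1 FPKM, a fragment count divided by transcript length and library size, and were tested among 16897 genes, and *Pparg*, *Rara* and *Vdr* did not.

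RNA-seq was done on microglia sorted as CD11b+ and CD45med from 3-month-old mice, with 1 library per mouse and 30 libraries in all. Homo mice carried *Bin1* flox/flox with Cx3Cr1-Cre, Het mice *Bin1* wt/flox with Cx3Cr1-Cre, and WT mice, by the study's figure legend, *Bin1* wt/flox without Cre. There were 5 WT, 6 Het and 5 Homo males, and 4 WT, 5 Het and 5 Homo females. The Cre gene is a knock-in at the *Cx3cr1* locus, active in microglia and related myeloid cells, and every Cre-positive mouse carries it, so that, against WT, effects of Cre and of losing a first *Bin1* copy cannot be told apart. *Cx3cr1* averaged 2043 FPKM in WT males and 2061 in WT females, against 917 to 1168 in the means of the Cre-positive groups. The 917 is the mean of Het females. Without the libraries Het-F-0206 and Het-M-0199, described below, the Het means were 1143 in females and 897.5 in males.

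Retinoid X receptors are ligand-activated transcription factors that bind DNA as homodimers or as the obligate partner of other nuclear receptors. Dimers with the liver X receptors (LXRs) respond to oxysterols and drive cholesterol efflux genes. Dimers with the peroxisome proliferator-activated receptors (PPARs) respond to fatty acids and regulate lipid use, and dimers with the retinoic acid receptors (RARs) and the vitamin D receptor respond to all-trans retinoic acid and to active vitamin D. In the brain these dimers are known for their part in lipid handling by microglia and in the maturation of oligodendrocytes, where RXRγ, the product of *Rxrg*, is found. The RXR binding core is AGGTCA, usually as a pair of copies in direct repeat.

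*Rxrg* (ENSMUSG00000015843) lies on the plus strand at chr1:167598384-167639623 of GRCm38 (mm10), with 4 annotated protein-coding transcripts. Of these, 3 begin at the 5′ end of the gene and 1 begins at position 167618309, inside introns of the others. Gene-level values cannot say which start was used, so the 250 bases before each RefSeq start (GRCm38.p6) are shown for reference, with the 1 copy of AGGTCA in capitals.
Rxrg first start, chr1:167598112-167598361, plus strand: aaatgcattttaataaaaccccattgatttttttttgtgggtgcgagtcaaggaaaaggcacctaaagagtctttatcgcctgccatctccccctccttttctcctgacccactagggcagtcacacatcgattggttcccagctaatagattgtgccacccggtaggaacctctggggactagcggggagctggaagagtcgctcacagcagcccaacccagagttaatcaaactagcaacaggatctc
Rxrg second start, chr1:167618015-167618264, plus strand: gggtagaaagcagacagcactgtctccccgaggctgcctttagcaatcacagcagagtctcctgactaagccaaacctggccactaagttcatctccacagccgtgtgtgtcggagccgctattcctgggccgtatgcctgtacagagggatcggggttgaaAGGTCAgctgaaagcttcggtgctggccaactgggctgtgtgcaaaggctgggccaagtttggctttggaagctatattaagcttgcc
The window of the first start held no AGGTCA on either strand, and that of the second held 1 on the plus strand, beginning at position −88 from the start. Both windows lay outside annotated exons, and the second was spanned by introns of 3 transcripts. Of all 32851 promoter windows of that length, 4607 (14.0%) held AGGTCA on either strand, against 5 of the 20 windows of the 10 receptor genes, 2 of *Pparg* and 1 each of *Rxra*, *Rxrg* and *Rarg*. The direct repeats AGGTCANAGGTCA, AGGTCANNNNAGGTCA and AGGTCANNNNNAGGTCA, pairs of the core spaced by 1, 4 and 5 bases and searched on both strands, were in 11, 5 and 3 of all windows and in 0 of the 20. A match in these letters is a description of the window, not of binding.

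The libraries labelled Het-F-0206 and Het-M-0199 went against their labels. Their *Bin1* levels, 42.7 and 51.8 FPKM, lay in the range of the Homo mice (39.5 to 55.5), while the other Het libraries held 117 to 164 and the WT libraries 230 to 290. *Cx3cr1* was 13.9 FPKM in Het-F-0206. The values of Het mice and of contrasts that include them are given below as labelled, and those that the results turn on also without both libraries. The sex labels fitted *Xist* and *Ddx3y* in all 30 libraries. The microglial markers *P2ry12* and *Tmem119* were at 3509 to 5359 and 1424 to 2581 FPKM over the 30 libraries, and neither was called against WT in Homo mice. Sequencing depth relative to the median library, estimated from the steps between low values, ran from 0.669 to 1.41, with group medians of 1.12 to 1.18 in WT and 0.916 to 1.00 in Cre-positive mice.

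The receptors fell into a steep order of abundance that was nearly the same in every library. *Rxrb* was the most abundant at a mean of 45.1 FPKM over the 30 libraries (37.8 to 55.4), followed by *Nr1h2*, which encodes LXRβ, at 37.4 (28.6 to 52.4) and *Rxra* at 16.4 (11.0 to 21.3). The ranges of *Rxrb* and *Nr1h2* overlapped, and *Rxra* was the third of the 10 in all libraries. *Ppard*, which encodes the widely expressed PPARδ, followed at 2.99 (1.74 to 6.10). *Rxrg* had a mean of 2.56, with 0.931 in WT and 3.26 in Cre-positive libraries, and its place among the 10 genes moved between the 4th and the 7th. In WT mice every *Rxrg* value (highest 1.55) was below every *Ppard* value (lowest 1.74), and in Cre-positive mice their ranges overlapped. *Nr1h3*, which encodes LXRα, and *Rarg*, which encodes RARγ, were at 0.601 and 0.473 FPKM with overlapping ranges. *Pparg*, *Rara* and *Vdr* were near the lower limit: they were listed at 0 in 20, 16 and 27 of the 30 libraries, with highest values of 0.514, 0.330 and 0.138. No comparison of these 3 genes is made.

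**Figure D1:**
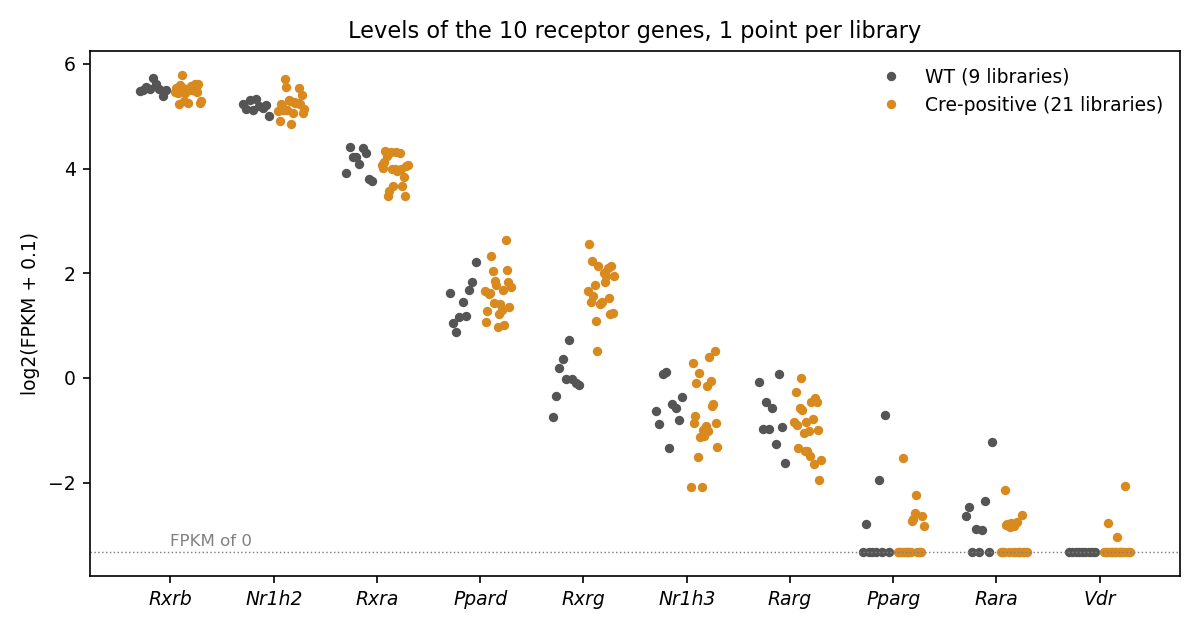
Levels of the 10 receptor genes as log2(FPKM + 0.1), with 1 point per library, WT in grey (9 libraries) and Cre-positive in orange (21 libraries), ordered by mean. Rxrb, Nr1h2 and Rxra stand well above the rest, and Rxrg is the gene whose Cre-positive points sit mostly above its WT points.

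*Rxrg* was low in WT microglia. In WT males the 5 libraries held 0.811, 0.835, 0.887, 0.890 and 1.55 FPKM, and in WT females the 4 libraries held 0.500, 0.684, 1.04 and 1.19. Thus 8 of the 9 WT libraries lay at or below 1.19 FPKM. In Homo males the values were 2.25, 2.26, 2.78, 3.76 and 4.31, and in Homo females 2.63, 3.48, 3.77, 3.89 and 4.19. All 10 Homo libraries were above every WT library of their sex, with no overlap. In Het females the values were 2.64, 2.88, 3.05, 4.60 and 5.75, again above every WT female. In Het males the values were 1.34, 2.01, 2.56, 2.59, 3.32 and 4.33, of which the lowest, Het-M-0197, was below the highest WT male, WT-M-0177, so that these groups overlapped by 1 library. Among all tested genes, 2.56% were above every WT library in Homo males, 1.65% in Homo females, 1.58% in Het females and 0.515% in Het males; since these contrasts chose *Rxrg*, nothing is read from its place among them.

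**Figure D2:**
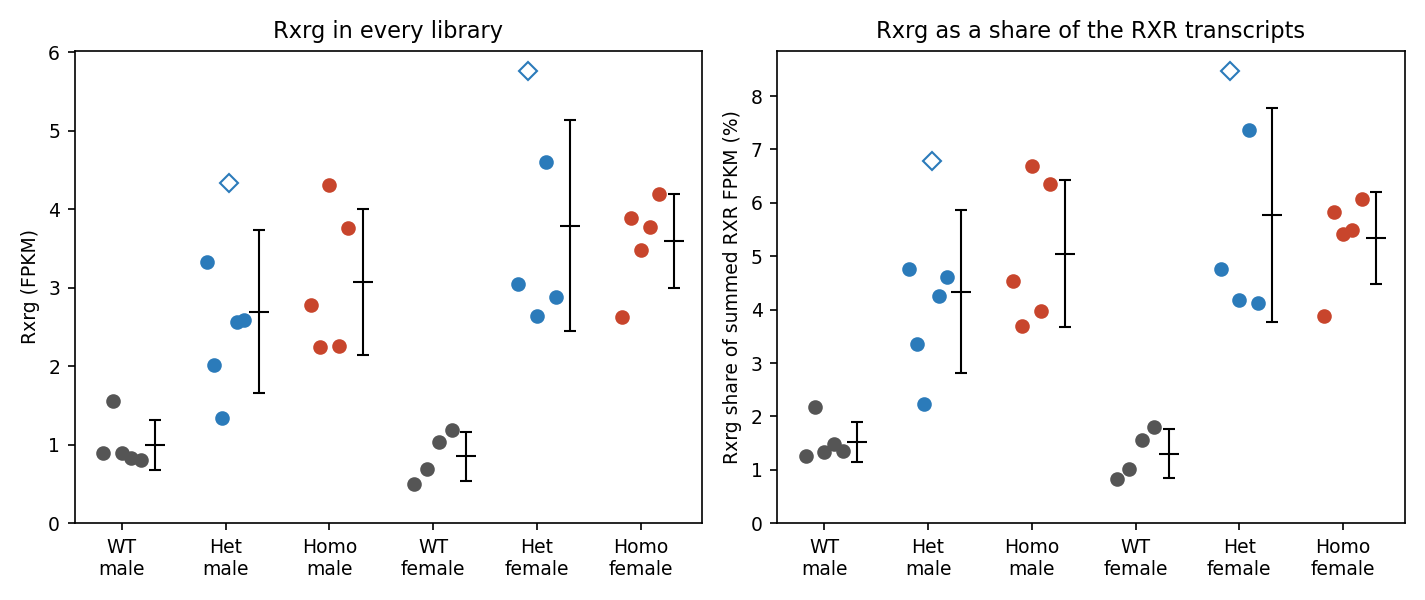
Rxrg in FPKM (left) and as a percentage of the summed FPKM of Rxra, Rxrb and Rxrg (right) in each of the 30 libraries by genotype and sex, with the mean and SD of each group in black. Open diamonds mark Het-M-0199 and Het-F-0206, which hold the highest values of their groups. On the left only the Het males overlap their WT group, and on the right no Cre-positive group does.

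The group means were 0.995 ± 0.313 (SD, n = 5) in WT males, 2.69 ± 1.04 (n = 6) in Het males and 3.07 ± 0.927 (n = 5) in Homo males. In females they were 0.852 ± 0.315 (n = 4), 3.79 ± 1.34 (n = 5) and 3.59 ± 0.597 (n = 5). The means were thus 2.71 and 3.09 times that of WT in Het and Homo males, and 4.45 and 4.22 times in females. On the log2(FPKM + 0.1) scale of the fit, the difference from WT was 1.23 (SE 0.26) and 1.45 (SE 0.27) in Het and Homo males and 2.03 (SE 0.29) and 2.00 (SE 0.29) in Het and Homo females. With a pseudocount of 1 in place of 0.1 these values were 0.80, 0.95, 1.35 and 1.32. In bulk RNA, more RNA per cell and more cells that express the gene cannot be told apart.

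Both Het libraries with Homo-like *Bin1* held the highest *Rxrg* of their group, at 4.33 in Het-M-0199 and 5.75 in Het-F-0206. Without them the difference from WT was 1.07 in Het males and 1.87 in Het females, and the remaining Het females (2.64 to 4.60) were still above every WT female.

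**Figure D3:**
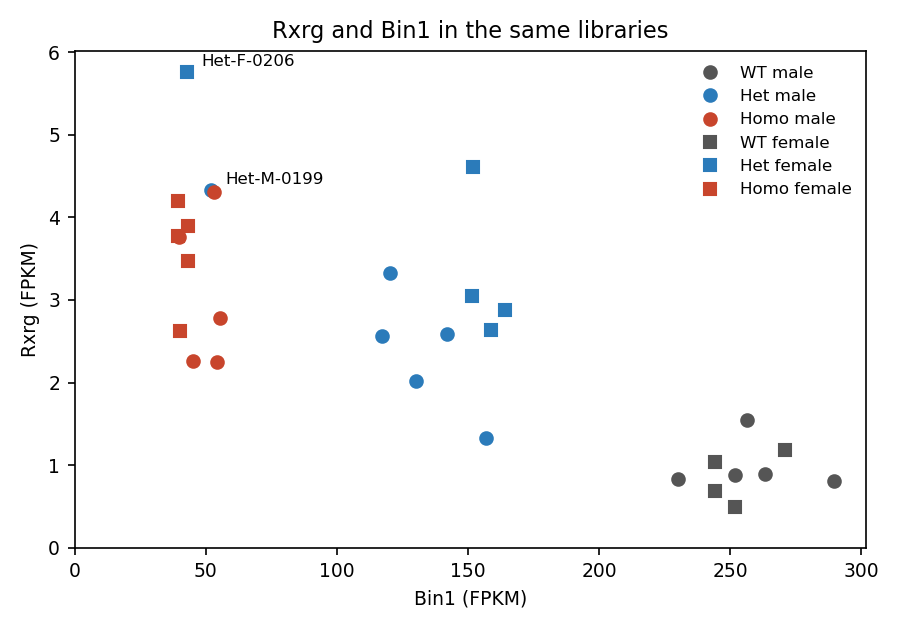
Rxrg against Bin1, both in FPKM, in the 30 libraries, with circles for males and squares for females. WT libraries lie at 230 to 290 FPKM of Bin1 and below 1.6 FPKM of Rxrg, and Het-F-0206 and Het-M-0199 lie among the Homo libraries on the Bin1 axis.

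*Rxrg* was chosen for being high in Het as well as Homo mice, so the difference between these groups is also given without a test. On the log2 scale, Homo minus Het was 0.21 (SE 0.26) in males and −0.02 (SE 0.27) in females, and 0.38 and 0.14 without both doubtful Het libraries. The Homo and Het ranges overlapped in both sexes. Of the other 6 tested receptors 0 were called between Homo and Het mice by limma, where 0 genes of 16897 (0%, with 651 at an unadjusted p under 0.05) were called in males and 2 (0.0118%) in females. By sex, *Rxrg* was 0.23 higher in females over the genotypes (95% CI −0.10 to 0.55), also given as a description without a test.

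*Rxrg* and the abundant RXRs are alternatives for the same dimer partners. *Rxrg* made up 1.52% ± 0.37 (SD, n = 5) of the summed FPKM of the 3 RXR genes in WT males and 1.30% ± 0.45 (n = 4) in WT females. It made up 4.33% ± 1.53 (n = 6) in Het males, 5.05% ± 1.38 (n = 5) in Homo males, 5.78% ± 2.01 (n = 5) in Het females and 5.34% ± 0.86 (n = 5) in Homo females. The highest share, 8.47%, was in Het-F-0206, and without that library the Het female mean was 5.11%. Without Het-M-0199, at 6.79%, the Het male mean was 3.84%. The summed RXR level was between 60.5 and 67.3 FPKM in every group mean, and *Rxrb* held 67.0 to 72.5% of it, so *Rxrg* remained the smallest of the 3 in all groups.

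Neither *Rxra* nor *Rxrb* was called against WT in any group. *Rxrb*, the RXR of highest level here, had means of 47.0 ± 4.25 FPKM in WT males (SD, n = 5), 44.5 ± 6.31 (n = 6) in Het males and 43.2 ± 4.73 (n = 5) in Homo males, and its groups overlapped. The log2 difference was −0.20 in Homo males (95% CI −0.35 to −0.05, limma adjusted p = 0.107) and −0.16 in Het males (adjusted p = 0.327, and −0.17 without Het-M-0199 and Het-F-0206), with 0.02 and −0.07 in Homo and Het females (adjusted p = 1.00 for both). In the contrast of all Cre-positive groups with WT, averaged over the sexes, it was −0.10 (95% CI −0.20 to −0.01, adjusted p = 0.309), and −0.11 without both libraries. The share of all tested genes called was 1.81% in Homo males, 0.154% in Het males, 0.071% in Homo females, 0.13% in Het females and 0.823% in the average contrast.

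*Rxra*, known as the main RXR of liver and many other tissues, was at 13.5, 13.8, 17.0, 19.7 and 20.8 FPKM in WT males. It was at 11.0, 12.7, 14.3, 16.5 and 16.6 in Homo males, and at 11.0 to 19.8 with a median of 14.1 in Het males. The groups overlapped, and the log2 difference was −0.33 in Homo males (95% CI −0.70 to 0.04, limma adjusted p = 0.278) and −0.31 in Het males (adjusted p = 0.408, and −0.36 without Het-M-0199 and Het-F-0206). In females it was −0.08 and −0.04 in Homo and Het mice (adjusted p = 1.00 for both).

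The male values of *Rxra* moved with the mouse numbers in the labels. The Cre-positive males include 5 mice numbered below 150, 3 Homo and 2 Het, and 6 numbered above, whereas all WT males were numbered above 150. The labels do not say what the numbers stand for. *Rxra* averaged 12.7 FPKM in early and 16.5 in late Homo males, and 11.4 in early and 16.0 in late Het males, a log2 difference, early minus late, of −0.58 (95% CI −0.90 to −0.25, limma adjusted p = 0.0316). That passed the p threshold and not the fold threshold of 1.5, in a contrast where 7.42% of all genes were called, and without Het-M-0199 and Het-F-0206 it was −0.57 (adjusted p = 0.0559). With late numbers only, the difference between Homo and WT males was −0.01, and it was also −0.01 with a term for the number range. *Rxrb* was at 0.14 for early minus late. It was at 38.0 and 38.9 FPKM in the 2 late Homo males, below the lowest WT male (41.8), and at 44.3 to 49.1 in the 3 early ones. The 4 late Het males, at 37.9 to 45.2, overlapped WT. Over 12 alternative settings the *Rxrb* difference between Homo and WT males ran from −0.28 to −0.12. For *Rxrg* the difference between early and late was −0.10 (95% CI −0.74 to 0.54, limma adjusted p = 0.837). Its difference between Homo and WT males was 1.61 with a term for the number range, the highest of 12 alternative settings (lowest 0.95).

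**Figure D4:**
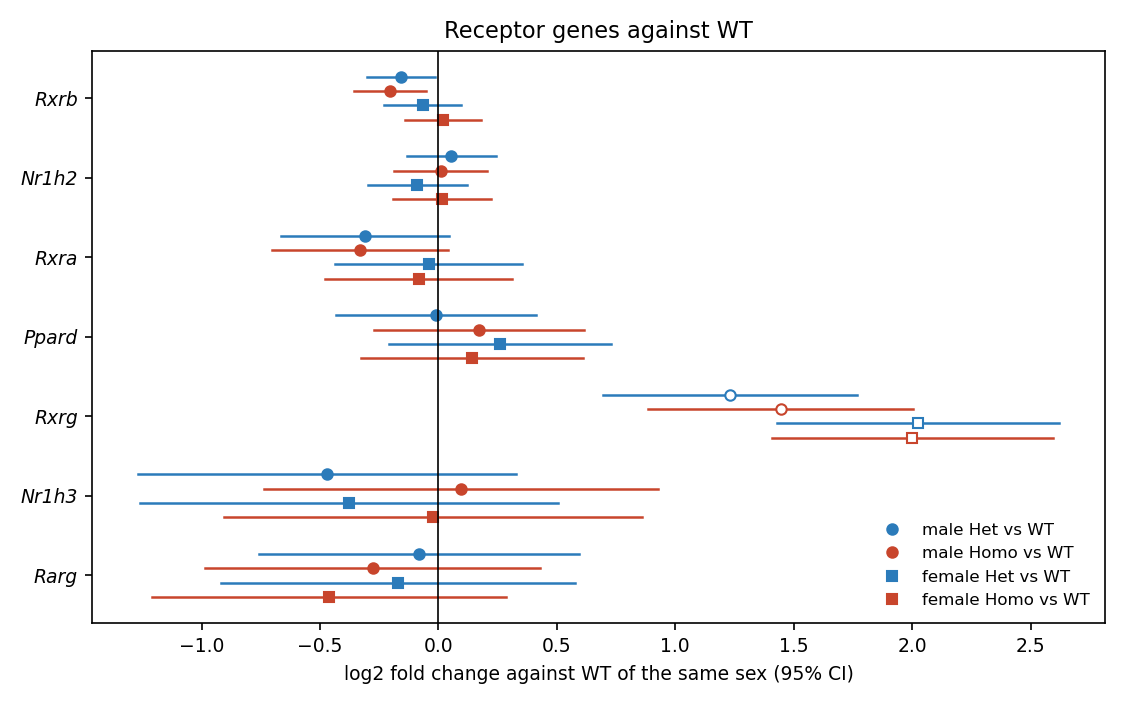
Log2 fold change against WT of the same sex, with its 95% CI, of the 7 tested receptor genes (Het in blue, Homo in red, males as circles, females as squares). Rxrg, shown with open symbols, lies at 1.23 to 2.03. It was chosen on these contrasts, so its intervals describe spread only and are no test. The intervals of the other 6 genes include 0, except those of Rxrb in males.

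None of the partner receptors was called against WT. Over the 6 tested genes other than *Rxrg*, 0 calls were made in each of the 4 groups against WT and in the average contrast. Of all genes, 1.81% were called in Homo males, 0.154% in Het males, 0.071% in Homo females, 0.13% in Het females and 0.823% in the average contrast. The tests of whether the difference from WT itself differed between the sexes also gave 0 calls, with 0% of all genes called. *Nr1h2*, the main LXR of these cells by level, had group means of 34.6 to 40.2 FPKM and log2 differences from WT between −0.09 and 0.06 (in Het mice −0.03 and 0.04 without both doubtful libraries), with a 95% CI of −0.13 to 0.12 in the average contrast (limma adjusted p = 0.990). Its interval was the narrowest among the partners tested. *Nr1h3*, the LXR induced in lipid-loaded macrophages, had group means of 0.411 to 0.741 FPKM and differences of −0.47 to 0.10 (−0.47 in Het males and −0.38 in Het females, and −0.29 and −0.62 without those libraries), with a 95% CI of −0.72 to 0.33 in the average contrast (adjusted p = 0.755).

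*Ppard* had group means of 3.18, 3.37 and 3.87 FPKM in WT, Het and Homo males, and 2.21, 2.66 and 2.44 in females. The average difference from WT was 0.14 (95% CI −0.14 to 0.42, limma adjusted p = 0.656). *Rarg*, a receptor for retinoic acid, had group means of 0.395 to 0.573 FPKM and an average difference of −0.25 (95% CI −0.70 to 0.20, adjusted p = 0.620). With late numbers only, *Rarg* was at −0.89 in Homo males against WT, rather than −0.28, and was not called in either fit. For both LXR genes, *Ppard* and *Rarg*, the libraries of each Cre-positive group overlapped those of WT.

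By sex, *Ppard* was lower in females by a log2 difference of −0.40 (SE 0.13, 95% CI −0.66 to −0.15), and *Rxra* was higher by 0.30 (SE 0.11, 95% CI 0.08 to 0.51). With limma adjusted p-values of 0.0716 and 0.0898 neither passed the threshold, in a contrast where 0.438% of all genes were called. *Rxra* was at 0.16 with late numbers only. *Rxrb*, *Nr1h2*, *Nr1h3* and *Rarg* were at 0.08, −0.02, 0.38 and 0.16, with adjusted p-values of 0.245 to 0.852.

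By mouse number in the Cre-positive males, a contrast where 7.42% of all genes were called, *Rarg* was the 1 receptor called of 7. Its values were 0.403, 0.551, 0.623, 0.665 and 0.896 FPKM in the 5 early libraries, and 0.159, 0.237, 0.280, 0.281, 0.384 and 0.459 in the 6 late ones. The early libraries stood mostly above the late ones, with 1 early value inside the late range. The log2 difference was 0.87 (95% CI 0.29 to 1.45, limma adjusted p = 0.0497). Without Het-M-0199 and Het-F-0206 it was 0.84 and not called (adjusted p = 0.0763). When 1 library at a time was left out, the call was lost in 10 of 11 fits and stayed without Het-M-0203. *Nr1h2*, *Ppard* and *Nr1h3* were at 0.26, 0.51 and 0.64 (adjusted p = 0.0679, 0.0961 and 0.259). The number of all genes called fell from 1253 to 1 without Het-M-0100, to 2 without Homo-M-0189 and to 3 without Het-M-0108, and rose to 2404 without Het-M-0203.

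The other genes of these pathways were counted in lists by role. Of 9 other RXR partners and RAR or PPAR paralogs, 6 were tested and 0 were called against WT in any group. In those contrasts 0.071% to 1.81% of all genes were called. *Thra*, a thyroid hormone receptor, was the highest at group means of 2.62 to 3.75 FPKM. The orphan receptor *Nr4a2* averaged 0.335 FPKM in WT males and 0.0765 in Homo males, a log2 difference of −1.32 (SE 0.38, limma adjusted p = 0.0547), and 0.144 and 0.177 in WT and Homo females. *Nr4a1* and *Nr1i3* were at −0.21 and −0.12 in Homo males (adjusted p = 0.755 and 0.898).

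Enzymes that supply ligands showed 1 call. Of 17 genes of retinoid supply and breakdown and RAR targets, 8 were tested and 0 were called against WT. The share of all genes called against WT was 0.071% to 1.81% by group and 0.823% in the average contrast. *Dhrs3*, which reduces retinal to retinol, averaged 124 ± 14.5 FPKM in WT males (SD, n = 5) and 92.2 ± 12.7 (n = 5) in Homo males, a log2 difference of −0.51 (SE 0.14, limma adjusted p = 0.0379) that did not reach the fold threshold, and 121 and 119 in WT and Homo females. *Tgm2*, a retinoic acid target, *Rdh11* and *Rdh10* were between −0.27 and −0.35 in Homo males (adjusted p = 0.260 to 0.311). Of 6 oxysterol and vitamin D enzymes, 3 were tested. *Ch25h*, which makes 25-hydroxycholesterol, an LXR ligand, rose in the average contrast by 1.18 (SE 0.24, adjusted p = 0.00585). It averaged 0.312 FPKM in WT males, 0.744 in Het males and 0.985 in Homo males, and 0.256, 0.840 and 0.583 in females, where the Het mean was 0.593 without Het-F-0206. The single groups did not pass (adjusted p = 0.0547 in Homo males). Without both doubtful Het libraries *Ch25h* was at 1.09 in the average contrast (adjusted p = 0.00971) and was called in Homo males at 1.28 (adjusted p = 0.0451), and with a pseudocount of 1 the average difference was 0.45 and was not called. *Cyp27a1* and *Cyp46a1*, which make other oxysterols, were at 0.15 and 0.14 (adjusted p = 0.573 and 0.704). Outside the comparisons with WT, *Aldh1a3*, a retinoic acid synthesizing enzyme, was at −0.95 in females against males (SE 0.22, adjusted p = 0.0356), and with late numbers only at −0.79 (adjusted p = 0.444), not called. In Cre-positive males with early mouse numbers *Cyp27a1* was higher by 0.79 (SE 0.16, adjusted p = 0.0219), and *Tgm2* and the PPAR target *Cpt1a* were at −0.61 and −0.68 (adjusted p = 0.0492 and 0.0352). Of all genes, 7.42% were called by mouse number. Without both doubtful Het libraries *Cyp27a1* was still called (adjusted p = 0.0442), whereas *Tgm2* and *Cpt1a* were not (adjusted p = 0.0839 and 0.058).

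Of the LXR targets, *Apoe* and *Pltp* were lower in Homo males. All 14 listed genes were tested, of which 2 fell and 0 rose in Homo males and 0 were called in Het males, Het females or Homo females. Of all genes, 1.81% were called in Homo males. The median log2 difference of the 14 was −0.319 in Homo males, beside 0.031 for all genes, and 0.002 in Homo females, beside 0.001. In Cre-positive males the same median was −0.327 for early against late mouse numbers, beside 0.095 for all genes, and 3 of the 5 Homo males but no WT male have early numbers. With late numbers only, which leaves 2 Homo males, the median in Homo males against WT was −0.091, beside 0.000 for all genes, and 0 of the 14 were called. *Apoe*, the main lipid carrier of the brain, averaged 517 ± 47.2 FPKM in WT males (SD, n = 5), 346 ± 62.0 (n = 6) in Het males and 254 ± 47.3 (n = 5) in Homo males. It fell in Homo males by 1.13 on the log2 scale (SE 0.20, limma adjusted p = 0.0023), and with late numbers only by 0.90 (adjusted p = 0.159). In females it averaged 414, 510 and 393 in WT, Het and Homo mice. Without Het-M-0199 and Het-F-0206 the Het means were 340 in males and 494 in females. The test of the sex difference in Homo mice gave −1.02 (95% CI −1.60 to −0.44, adjusted p = 0.495).

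*Pltp*, the phospholipid transfer protein gene, averaged 3.33 ± 1.65 FPKM in WT males (SD, n = 5), 1.22 ± 0.482 (n = 6) in Het males and 0.950 ± 0.299 (n = 5) in Homo males. It fell in Homo males by 1.72 (SE 0.38, limma adjusted p = 0.017) and in the average contrast by 1.03 (SE 0.24, adjusted p = 0.0233). With late numbers only it was at −1.83 in Homo males and not called (adjusted p = 0.179), whereas in the average contrast it was still called lower. Without both doubtful Het libraries the Het male mean was 1.18 FPKM and the average difference −1.03 (adjusted p = 0.035). The call in Homo males was lost without Homo-M-0093 (−1.66, adjusted p = 0.0582) and without WT-M-0177 (−1.47, adjusted p = 0.0648), and the average call was lost without WT-M-0177, WT-M-0178, WT-F-0192 or WT-F-0200, at −0.87 to −0.99. *Mertk* and *Lpcat3* were at −0.16 and −0.20 in Homo males (adjusted p = 0.463 and 0.305). The markers of choroid plexus, the epithelium that makes cerebrospinal fluid, summed to 0.166 to 268 FPKM in WT males and 0.351 to 22.8 in Homo males, and 2 of its 4 markers, *Clic6* and *Kl*, were called lower in the average contrast, and neither without both doubtful Het libraries (adjusted p = 0.0736 and 0.0534). Of all genes, 0.823% were called in the average contrast. The part of the choroid plexus markers in the *Pltp* values was not tested.

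PPAR targets held 1 call against WT among 9 tested of 12, in Homo males, where 1.81% of all genes were called. *Plin2*, a lipid droplet coat protein gene, averaged 22.0 ± 1.54 FPKM in WT males (SD, n = 5), 17.4 ± 1.99 (n = 6) in Het males and 15.1 ± 1.42 (n = 5) in Homo males, and fell in Homo males by 0.63 (SE 0.10, limma adjusted p = 0.00151). The difference sits close to the fold threshold: it was −0.57 with the number range as a covariate and −0.55 without scaling, and was then not called. With late numbers only it was −0.66 and not called (adjusted p = 0.062). The Het male mean was 16.7 without Het-M-0199. In females *Plin2* averaged 21.4, 19.9 and 18.1 in WT, Het and Homo mice (−0.25 in Homo, adjusted p = 1.00). *Ucp2*, *Acadl* and *Ech1* were at −0.50, −0.40 and −0.05 in Homo males (adjusted p = 0.0591, 0.12 and 0.788). The median of the 9 was −0.504 in Homo males and −0.057 in Homo females, beside 0.031 and 0.001 for all genes. It was −0.163 for early against late mouse numbers, beside 0.095 for all genes. With late numbers only it was −0.191 in Homo males, beside 0 for all genes. *Cd36* was called lower in the average contrast with late numbers only, and not in the main fit. Nuclear receptor coregulators showed 0 calls against WT, in any group or in the average contrast, among 14 tested of 15. Of all genes, 0.071% to 1.81% were called in these contrasts. The coregulator median was −0.035 in Homo males and −0.029 in Homo females, beside 0.031 and 0.001 for all genes. *Nrip1*, *Gps2*, *Ncor1* and *Hdac3*, the highest by level, lay between −0.08 and 0.17 in Homo males.

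**Figure D5:**
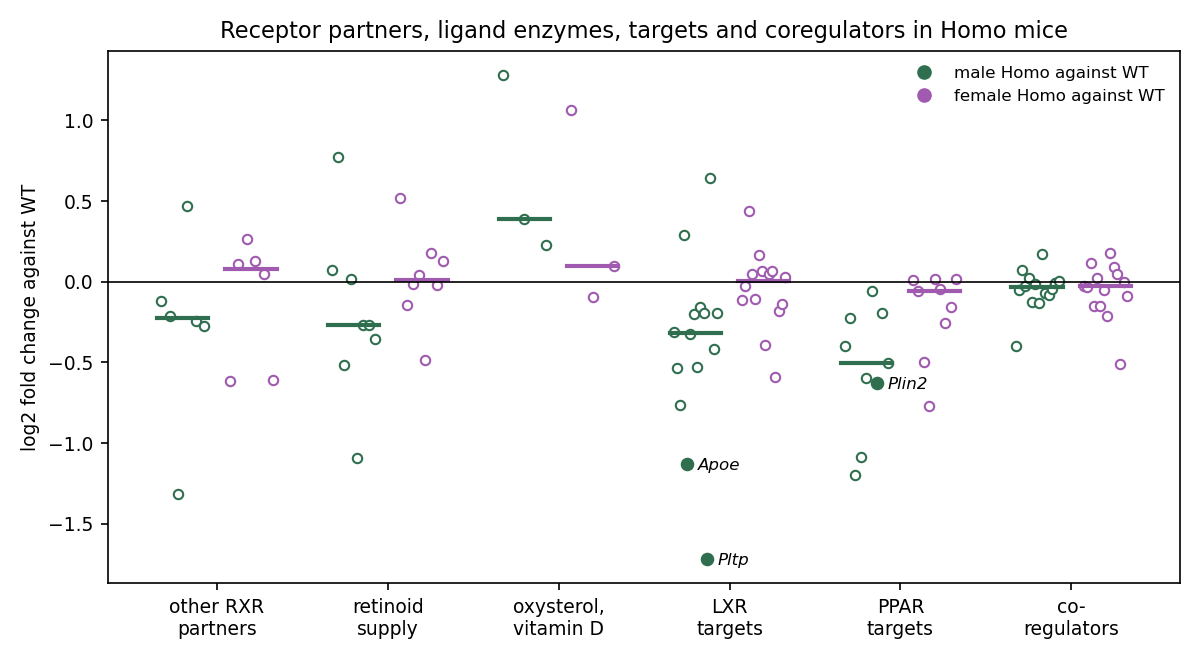
Log2 fold change of Homo against WT mice, for every tested gene of 6 lists by role, in males (green) and females (purple), with filled points for called genes and bars at the list medians. Apoe, Pltp and Plin2 in males are the filled points, and the female medians lie between −0.06 and 0.10.

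Oligodendrocyte lineage cells, which are known to hold RXRγ, were checked beside *Rxrg*. The 9 markers summed to 24.5 to 36.1 FPKM in WT males, 29.4 to 122.3 in Het males and 26.9 to 80.3 in Homo males, and to 23.4 to 47.1, 28.6 to 35.7 and 30.9 to 56.9 in WT, Het and Homo females. The group means were 30.1, 53.6 and 44.5 in WT, Het and Homo males, and 32.8, 32.9 and 38.6 in females. In males WT was lowest, as for *Rxrg*, whereas Het was above Homo, unlike *Rxrg*. In females the means of WT and Het were close, where *Rxrg* was higher in Het. Spearman's rho of *Rxrg* with the sum was 0.22 over the 21 Cre-positive, −0.63 over the 9 WT and 0.33 over all 30 libraries, without a test. The ranges of each Cre-positive group overlapped that of WT, and 0 of the 6 tested markers were called against WT in Homo mice or in the average contrast. *Pdgfra*, *Cspg4*, *Olig2*, *Sox10* and *Mog* had medians of 0.179 FPKM or less and were listed at 0 in 5 to 16 libraries, and none was above 0.866. The sums were carried by *Mbp* and *Mag*, and the part of these cells in the *Rxrg* values was not tested. *Mbp* was called higher in Cre-positive males with early mouse numbers, where 7.42% of all genes were called, but not without both doubtful Het libraries. Neutrophil markers were lower in Homo males (3 of 6 tested, *Ltf*, *Ngp* and *S100a9*, the last not called without the doubtful Het libraries), where *Rxrg* was higher, and 1 of 6 border macrophage markers, *F13a1*, was lower in the average contrast; their part in the *Rxrg* values was not tested. Markers of monocytes, neurons, astrocytes, endothelium and lymphocytes held 0 calls in Homo mice or in the average contrast. The share of all genes called was 1.81% in Homo males, 0.071% in Homo females and 0.823% in the average contrast.

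The genes around *Rxrg* had overlapping levels in WT and Homo mice. The protein-coding genes within 300 kb are *Tmco1*, *Aldh9a1*, *Mgst3*, *Lrrc52* and *Lmx1a*, of which *Tmco1*, *Aldh9a1* and *Mgst3* averaged 119, 21.3 and 8.48 FPKM in WT males and 145, 22.6 and 9.27 in Homo males. In females they averaged 126, 22.9 and 8.24 in WT and 127, 20.8 and 8.43 in Homo mice. *Lrrc52* and *Lmx1a* were near 0, with no library above 0.415 FPKM.

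Over the 30 libraries, the genes whose levels ran most like *Rxrg*, among 11622 with a mean of at least 1 FPKM, were *Ildr2* (Spearman's rho 0.82), *Vcam1* (0.82), *Chst1* (0.81), *Lox* (0.81) and *Tmem154* (0.80). All share with *Rxrg* the step between WT and Cre-positive mice: *Chst1* averaged 14.9 and 36.9 FPKM, *Vcam1*, a cell adhesion molecule, 3.95 and 8.71, and *Lox*, a collagen cross-linking enzyme, 0.386 and 2.42. With the group means removed, so that only the spread within groups was left, the order was *Tns4* (0.68), *Adamtsl2* (0.67), *Rnf180* (0.67), *Zmat1* (0.58) and *Lox* (0.56), with *Lox* in both lists. For the other receptors over the 30 libraries, *Rxra*, *Rxrb*, *Nr1h2* and *Ppard* were at −0.11, −0.07, 0.06 and −0.02. Within groups *Rxrb* was at 0.32, the 338th of the 11622 genes, and *Ppard* at −0.23. These correlations describe libraries that share their scaling and groups, and carry no test.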

How the data were processed

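The authors sorted microglia, prepared libraries with SMARTer v4 and Nextera XT, and by the study's methods aligned the reads with OSA4 to mm10 with the Ensembl R84 gene model and estimated abundance with RSEM; the submitters' notes also name DESeq2. Here the deposited values were FPKM per gene and mouse, normalized by the authors, without counts, so that absolute depth is unknown and DESeq2 was not repeated. The labels' culture protocol describes other cells; the study's account was followed. A table column was used where its name matched a sample title, and 6 columns that matched none were not used. By the study's methods, 6 samples were removed for few uniquely mapped read pairs and high duplication. Whether these are the 6 unmatched columns was not tested. FPKM were scaled by median of ratios, using genes above 0 in all libraries and averaging at least 1 FPKM, and log2(FPKM + 0.1) was fitted with limma 3.58.1 in R 4.3.3 (trend, 1 fit over the 6 groups) for 16897 genes with a mean of at least 0.1 FPKM; the comparison by mouse number (below 150, early) used the Cre-positive males with genotype as a term. P-values were adjusted by Benjamini-Hochberg over all genes, and the fit was tested on simulated data. Adding 0.1 understates the change of low genes. The receptor genes and all lists were chosen with earlier results of these data known. In each list, genes called against WT were named first, then those of highest level, up to 4. Positions are from GENCODE M21. Alternatives were other pseudocounts, filters, scalings and weights, number range, and leaving out libraries.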

Additional observations from a re-analysis of the deposited data

Results flagged for a closer look

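In 62 groups of 4 to 6 libraries, 12 values stood further from the rest of their group than Dixon's criterion allows at 95%, where chance gives about 1 in 20. *Rxrg* was 1.551 FPKM in WT-M-0177, while the other WT males lay between 0.8107 and 0.8896, and in the same library its share of the summed RXR level was 2.168%, against 1.256 to 1.481% in the others. This library is the one that the lowest Het male fell below. *Nr1h2* was 33.22 FPKM in Homo-F-0193, below 37.95 to 38.29 in the other Homo females. *Nr1h3* was 0.966 in Het-M-0108, above 0.1354 to 0.3988. The remaining 8 were low values of *Pparg*, *Rara* and *Vdr*, which are listed at 0 in most libraries. In all but that of *Rara* in WT males the rest of the group was at 0, where any value above 0 meets the criterion, so they are given as values only. *Pparg* was 0.0452 in WT-F-0192 and 0.2468 in Het-F-0257. *Rara* was 0.3297 in WT-M-0258, 0.0633 in Homo-M-0093 and 0.0485 in Homo-F-0201. *Vdr* was 0.0219 in Het-M-0210, 0.1379 in Homo-M-0093 and 0.0459 in Het-F-0220.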

How the results depend on the processing

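Without *Rxrg*, the counts of receptor genes called were 0 against WT, between Homo and Het mice, by sex and for the sex differences. They stayed 0 under every alternative run. The exception was the comparison by mouse number, where *Rarg* was called: the count of 1 became 2 with array weights and with no fold threshold, and 0 with a pseudocount of 0.01 or 1, with no filter, with genes of a mean of at least 1 FPKM (where *Rarg* is left out) and without Het-F-0206 and Het-M-0199. Leaving out 1 library at a time gave 0 to 2. With quantile normalization the 1 gene called was *Rxra* in place of *Rarg*. The difference of *Rxrg* from WT kept its direction in all alternatives, from 0.80 to 2.20 on the log2 scale over the 4 groups, with the lowest values at a pseudocount of 1. These contrasts chose *Rxrg*, so nothing is read from the kept direction. Uncalled values near 0 could turn sign: *Ppard* in Homo males against WT was 0.17, and −0.12 with late numbers only, and *Nr1h3* was 0.10 and −0.38. The fits of the gene lists without both doubtful Het libraries and with late numbers only were chosen after seeing the data. No paired analysis was possible because each mouse number belongs to 1 mouse and is shared by no pair of groups.

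The deposited values hold no counts, so counting error could not be separated from differences between mice. The labels do not say what the mouse numbers stand for; all WT males have late numbers, and 5 of 11 Cre-positive males early ones. WT mice differ from the Cre-positive mice in the Cre allele as well as in *Bin1*. With limma, 0 calls do not show equal levels: the interval of *Nr1h3* in Het males reaches −1.27 on the log2 scale.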
